A study of Mus musculus with 44 samples.

Results

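The 10 genes described here belong to the transcriptional response that ATF4 mounts when amino acids run short: Atf4 itself, the regulators Ddit3 and Trib3, the amino acid enzymes Asns, Phgdh and Psat1, the glutathione-degrading enzyme Chac1, and the growth brakes Ddit4, Sesn2 and Eif4ebp1. They were chosen by name, and the transcripts of each were summed per gene. All 10 were found among the 24733 genes with any measured level, and 8 of them had a mean level of at least 1 TPM, kallisto's length-normalised share of a library's transcripts, a filter that 12874 genes passed. The data are polyA RNA-seq of kidney from mice of strain 129SV aged 8 to 12 weeks after birth and held on night-restricted feeding. The 2 genotypes were wild type (WT) and KO, given as Bmal -/- in the study's design and lacking the circadian clock activator Bmal1 (gene symbol Arntl). Each was sampled at zeitgeber times ZT0, ZT4, ZT8, ZT12, ZT16 and ZT20, with 2 libraries, A and B, per genotype and time, or 24 libraries in all. The labels used here do not say how the KO was made, whether the deletion is confined to a tissue, the sex of the animals, or whether libraries A and B came from separate animals, so the p-values measure the spread between libraries.

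ATF4 is a transcription factor whose translation, more than its transcription, rises when kinases such as GCN2 phosphorylate the initiation factor eIF2. It binds composite elements that join a C/EBP half-site to an ATF half-site, and switches on genes for amino acid uptake, amino acid synthesis, tRNA charging and the restraint of mTORC1, the kinase complex that couples amino acid supply to growth. The kidney is a main site of serine synthesis and of amino acid reabsorption, so several of these enzymes have roles in tubule cells outside of stress. RNA levels report neither the amount of ATF4 protein nor the phosphorylation of eIF2.

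The promoter sequences below are shown because they hold letters of the ATF4 element class for the genes that respond to it. The windows reach 250 bases before the RefSeq start of each gene (GRCm38.p6). 9 of the 10 genes had an entry, with 10 windows between them. Eif4ebp1 had no entry, so its promoter was not searched. The motifs searched on both strands were TGATGNAA and TGNNGCAA, which overlap where a sequence meets both, and these forms were chosen with the sequences known. Capitals mark the match, written on the gene's own strand from 5′ to 3′, with no more than 11 bases on each side.
Asns, chr6:7693214-7693243: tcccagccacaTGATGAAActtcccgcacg
Chac1, chr2:119351038-119351067: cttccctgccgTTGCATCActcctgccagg
Chac1, chr2:119351001-119351030: ctgactcgcccTTGCTGCAtgccagttctg
Chac1, chr2:119350992-119351010: TGACGCAAtctgactcgcc
Psat1, chr19:15925177-15925206: acgcgggtggcTGGTGCAAtcccctgctct
Sesn2, chr4:132510656-132510685: catgcaaaagtTTGCAGCAtctgtgcgagg
Trib3, chr2:152344075-152344104: cgggtcacagaTGGTGCAAtcccgggccgc
Asns and Chac1 held TGATGNAA, which occurs in 3.45% of 32851 promoter windows of the same length. Chac1, Psat1, Sesn2 and Trib3 held TGNNGCAA, which occurs in 9.59% of them. The RefSeq start of Psat1 lies inside the GENCODE gene, and the Asns match lies within the first bases of its gene as GENCODE draws it. Chac1 carried 3 separate matches, the nearest of them 193 to 186 bases before the start, and Trib3 and Psat1 shared the same 8 letters, TGGTGCAA. The E-box CACGTG, the letters that BMAL1 and CLOCK bind, was in none of the windows of these 9 genes and in 6.02% of all windows. A match describes letters in a window and is no evidence of binding.

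TPM values are shares of each library's total, so the depth behind them is unknown. Libraries of the same genotype and time correlated with r between 0.948 and 0.964 across genes. Arntl transcripts were counted in every KO library, at 4.19 to 6.28 TPM within the WT range over all times of 0.295 to 12.9. Matched by time, the KO and WT pairs overlapped at ZT4 only. At ZT12 the KO libraries read 5.94 and 5.70 TPM and the WT libraries 0.295 and 0.527. At ZT20 they read 4.19 and 6.11 against 9.38 and 8.24. This gene's total therefore does not check the labels at ZT4, but differs by label at the other times. Cry1, a clock repressor, was at 11.5 to 17.8 TPM in 11 KO libraries and at 1.03 in the library labelled KO ZT4 A, which also had Nr1d1, another clock gene, at 23.9 TPM against 1.24 to 3.46 in the others. The 2 WT libraries at ZT4 read 1.20 and 0.845 TPM for Cry1 and 22.0 and 33.0 for Nr1d1, so KO ZT4 A was near WT of its own time in both. The library labelled KO ZT12 A had the Y-linked gene Ddx3y at 0.099 TPM, against 12.6 to 17.5 in the other KO libraries. Results were therefore also computed without both libraries. Summed markers of some kidney cell types also differed: the collecting duct principal cell markers Aqp2 and Aqp3 summed to 125 to 241 TPM in WT and 167 to 427 in KO. The intercalated cell markers Atp6v1b1 and Slc4a1 summed to 43.1 to 59.2 TPM in WT and 55.9 to 89.4 in KO, and the haemoglobin transcripts of blood to 451 to 1110 and 637 to 1515. The liver markers Alb, Apoa1 and Ttr summed to 18.4 to 73.9 TPM in WT and 58.2 to 120 in KO, but did not move together. Of the 2 liver markers tested, 1 was called higher and 1 lower in KO, with a median log2 difference of -0.589. The 5 proximal tubule markers, which define the main cell type of the kidney, summed to 1924 to 2318 TPM in WT and 1943 to 2587 in KO, and the markers of adrenal cortex and lymphocytes were at most 1.45 TPM in any library. Transcripts known to be high in male kidney (Slco1a1, Cyp2j13 and Kap) summed to 31030 to 40900 TPM in WT and 10480 to 35910 in KO, and those high in female kidney (Slc7a12 and Prlr) to 3.65 to 22.4 and 6.99 to 165, the KO ZT4 A library being the one nearest WT in both. The part of these differences in the results below was not tested. In bulk tissue, fewer cells of a type and less RNA per cell cannot be told apart.

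Of the 8 genes tested, Eif4ebp1 alone passed for a difference between genotypes, 1.22 times higher in KO by its mean, where 60.9% of all tested genes passed. That call did not hold after median-of-ratios scaling of the libraries (limma adjusted p = 0.0883). Under that scaling Psat1 alone of the 8 passed, lower in KO (limma adjusted p = 0.0436), where 44.3% of all tested genes passed and 22.2% were lower. Chac1, under the filter because of its low level, was lower in KO at 0.634 times the WT mean. It passed when genes of all levels were tested, where 35.7% of genes passed. Atf4 itself was at 38.9 ± 7.10 TPM in WT and 39.0 ± 6.35 in KO (SD, n = 12 libraries each). None of the 8 passed a test for a 24-hour rhythm in WT, where 13.7% of all tested genes passed, or in KO, where 3.64% did.

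**Figure D1:**
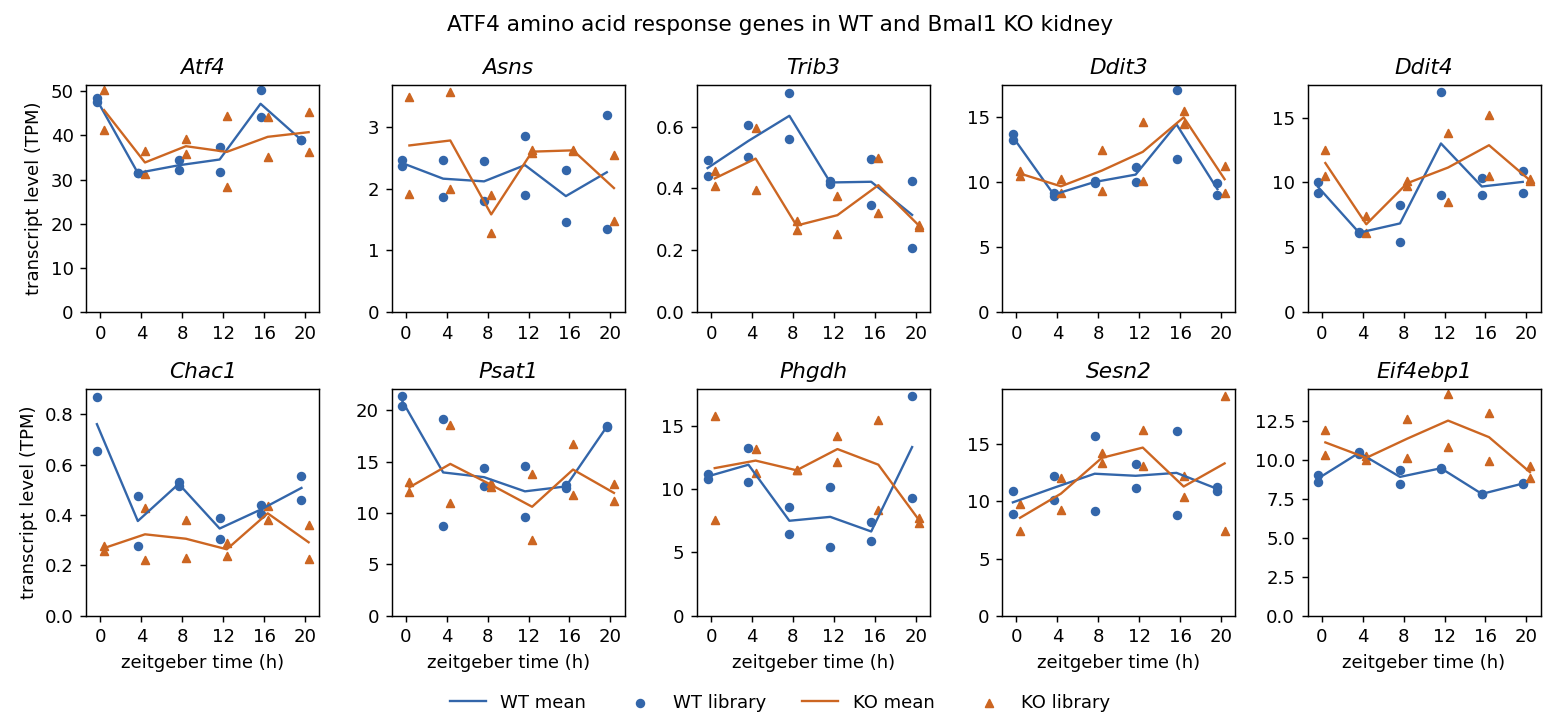
Transcript level in TPM (linear axis from 0, scaled per gene) against zeitgeber time in hours, for each of the 10 genes. Circles are the 2 WT and triangles the 2 KO libraries per time, and lines join their means. Eif4ebp1 in KO lies above WT at 5 of 6 times, and Chac1 and Trib3 stay below 1 TPM in all 24 libraries.

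The levels, which TPM sets per transcript length and so allows to be compared between genes, fell into 4 steps. Atf4 was the most abundant, with a mean of 38.9 TPM over the 24 libraries. Psat1, Sesn2, Ddit3, Phgdh, Eif4ebp1 and Ddit4 followed with means of 14.0, 11.8, 11.3, 10.5, 9.99 and 9.81 TPM, and these neighbours did not differ by more than their SD over libraries, which ran from 1.62 to 3.72 TPM. Asns was at 2.29 ± 0.626 TPM, and Trib3 and Chac1 were last at 0.418 ± 0.126 and 0.400 ± 0.153 TPM (SD, n = 24). Atf4, Ddit4, Chac1, Sesn2 and Eif4ebp1 each had 1 annotated transcript in the table. For Psat1, a transcript annotated as a retained intron made up 29.5% of the gene's TPM. For Asns, the main protein-coding transcript made up 64.9%.

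Atf4 (chr15:80255184-80257541, plus strand, coordinates in GRCm38) encodes the transcription factor at the head of the response. Its WT libraries read 48.5 and 47.6 TPM at ZT0, 31.5 and 31.5 at ZT4, 32.1 and 34.4 at ZT8, 31.7 and 37.4 at ZT12, 50.2 and 44.1 at ZT16, and 39.0 and 38.9 at ZT20. The KO libraries read 41.1 and 50.3 at ZT0, 31.3 and 36.4 at ZT4, 39.2 and 35.9 at ZT8, 44.3 and 28.2 at ZT12, 44.3 and 35.1 at ZT16, and 45.3 and 36.1 at ZT20. In WT the 4 libraries of ZT0 and ZT16 were the highest and those of ZT4 among the lowest, while the KO pair at ZT12 spanned most of the KO range. Both KO libraries were above both WT libraries at ZT8, and at the other times the genotypes overlapped. The log2 difference in Atf4 averaged over times, KO minus WT on the log2(TPM + 0.1) scale used for every gene, was 0.01 (SE 0.071; 95% interval -0.14 to 0.15; limma adjusted p = 0.947). The fitted peak-to-trough size was 0.51 (SE 0.17) in WT with a peak at 19.6 h, at an adjusted p of 0.102, and 0.28 (SE 0.17) in KO, at an adjusted p of 0.541.

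Ddit3 (chr10:127290774-127296288, plus strand) encodes CHOP, a partner of ATF4 that carries the response towards cell death when stress persists. It overlaps Mars, a methionyl-tRNA synthetase gene on the opposite strand with a mean of 21.6 TPM, and since strandedness is not given in the sources used here, reads may be shared between them. Ddit3 ranged from 8.89 to 17.0 TPM in WT, with a median of 10.0, and from 9.12 to 15.5 in KO, with a median of 10.6. Its highest mean was at ZT16 and its lowest at ZT4 in both genotypes: at ZT16 WT read 17.0 and 11.8 and KO 14.4 and 15.5, and at ZT4 WT read 8.89 and 9.14 and KO 9.12 and 10.2. The genotype difference was 0.04 (SE 0.075; interval -0.12 to 0.20; adjusted p = 0.655). The fitted rhythm was 0.33 in WT and 0.48 in KO (SE 0.20 for each), at adjusted p-values of 0.479 and 0.296.

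Trib3 (chr2:152337422-152344032, minus strand) encodes a pseudokinase that ATF4 induces and that in turn restrains ATF4 and the kinase AKT. It lay between 0.206 and 0.710 TPM in WT, with a median of 0.466, and between 0.252 and 0.597 in KO, with a median of 0.349. At ZT8 the 2 WT libraries read 0.560 and 0.710 TPM and the 2 KO libraries 0.265 and 0.294, the widest gap of any time, and 2 of 12 KO libraries exceeded the WT median. With genes of all levels tested, where 35.7% of 24733 genes were called, the difference was -0.27 (SE 0.12; interval -0.52 to -0.02; adjusted p = 0.0844), which did not pass. An exact two-sided permutation test of the TPM values, exchanging genotype within each time over 46656 assignments, gave an unadjusted p of 0.0337 for Trib3. The unadjusted p of the limma test was much the same, at 0.0335. With libraries scaled by the median of gene ratios, a setting described below with Eif4ebp1, the difference was -0.39 with an adjusted p of 0.0240, which passed.

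Chac1 (chr2:119351229-119354381, plus strand) encodes a gamma-glutamyl cyclotransferase that breaks down glutathione, and its promoter holds the 3 matches printed above. WT libraries read 0.868 and 0.652 TPM at ZT0, 0.276 and 0.476 at ZT4, 0.515 and 0.533 at ZT8, 0.305 and 0.388 at ZT12, 0.438 and 0.405 at ZT16, and 0.554 and 0.462 at ZT20. KO libraries read 0.259 and 0.279 at ZT0, 0.426 and 0.221 at ZT4, 0.381 and 0.231 at ZT8, 0.289 and 0.239 at ZT12, 0.435 and 0.378 at ZT16, and 0.224 and 0.359 at ZT20. None of the 12 KO libraries exceeded the WT median of 0.469, and 5 were below the lowest WT library, although the 2 ranges overlapped. Chac1 fell by 0.50 on the log2(TPM + 0.1) scale (SE 0.13; interval -0.78 to -0.23), with an adjusted p of 0.00525 in limma over genes of all levels. The exact permutation test within times gave an unadjusted p of 0.00202.
The WT pair at ZT0 was the highest of the 24 libraries, and without the higher of them the difference was -0.44 (adjusted p = 0.0101). It was -0.59 (adjusted p = 0.00139) without the libraries labelled KO ZT4 A and KO ZT12 A, and -0.18 with a pseudocount of 1, which shrinks changes at such levels.

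Among the amino acid enzymes, no genotype difference passed. Asns (chr6:7675169-7693254, minus strand) makes asparagine and is the textbook target of ATF4. It ranged from 1.34 to 3.19 TPM in WT, with a median of 2.33, and from 1.27 to 3.57 in KO, with a median of 2.56. The difference was 0.09 (SE 0.16; interval -0.24 to 0.42; adjusted p = 0.634). Asns had the smallest fitted rhythm in WT of the 8 tested genes, 0.16 (SE 0.33). With protein-coding transcripts alone the difference was 0.24 (limma adjusted p = 0.0936). The main coding transcript averaged 1.51 TPM in WT and 1.47 in KO, while a coding transcript of 431 bases averaged 0.0962 and 0.411. A processed transcript without a coding frame, left out of that fit, averaged 0.576 TPM in WT and 0.419 in KO.

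Phgdh (chr3:98313170-98339990, minus strand) and Psat1 (chr19:15904678-15947337, minus strand) catalyse the first and the next step of serine synthesis. Psat1 in WT read 20.4 and 21.4 TPM at ZT0, 19.1 and 8.76 at ZT4, 14.3 and 12.6 at ZT8, 14.6 and 9.62 at ZT12, 12.5 and 12.7 at ZT16, and 18.4 and 18.4 at ZT20. In KO it read 13.0 and 12.0 at ZT0, 18.6 and 10.9 at ZT4, 13.0 and 12.5 at ZT8, 13.8 and 7.40 at ZT12, 11.7 and 16.7 at ZT16, and 11.1 and 12.8 at ZT20. At ZT0 and ZT20 both WT libraries of Psat1 were above both KO libraries, whereas at the other times the pairs overlapped. The difference over all times was -0.23 (SE 0.14; interval -0.53 to 0.07; adjusted p = 0.177). It passed without the libraries labelled KO ZT4 A and KO ZT12 A (-0.35, adjusted p = 0.0283), without WT ZT4 B, the lowest WT library (-0.32, adjusted p = 0.0360), and after median-of-ratios scaling (-0.38, adjusted p = 0.0436).

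Phgdh in WT read 10.8 and 11.2 TPM at ZT0, 10.6 and 13.3 at ZT4, 6.42 and 8.57 at ZT8, 10.2 and 5.46 at ZT12, 5.90 and 7.41 at ZT16, and 9.30 and 17.3 at ZT20. In KO it read 15.7 and 7.56 at ZT0, 13.2 and 11.3 at ZT4, 11.5 and 11.5 at ZT8, 14.2 and 12.1 at ZT12, 8.36 and 15.5 at ZT16, and 7.33 and 7.72 at ZT20. KO libraries lay above both WT libraries at ZT8, ZT12 and ZT16 and below both at ZT20. The average difference was 0.25 (SE 0.18; interval -0.14 to 0.63; adjusted p = 0.249). Phgdh had the largest fitted rhythm of the 8 tested genes in WT, 0.90 (SE 0.30) with a peak at 0.16 h, and 0.53 (SE 0.30) in KO with a peak at 8.68 h. The test of the difference between these rhythms gave an unadjusted p of 0.0216, the smallest of the 8, and an adjusted p of 0.281 in limma.

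The brakes on growth signalling act on mTORC1 or on what lies downstream of it. Ddit4 (chr10:59949669-59951834, minus strand) encodes REDD1, which activates the TSC complex and so restrains mTORC1. Its mean was lowest at ZT4 in both genotypes, where the libraries read 6.14 and 6.10 TPM in WT and 6.09 and 7.44 in KO, although the lowest single WT library was at ZT8 with 5.43, and its single highest libraries were 16.9 in WT at ZT12 and 15.2 in KO at ZT16. The genotype difference in Ddit4 was 0.19 (SE 0.11; interval -0.04 to 0.43; adjusted p = 0.140), and it passed when WT ZT12 A, the highest library, was left out (0.27, adjusted p = 0.0183) or when KO ZT12 B was (0.26, adjusted p = 0.0342). The fitted Ddit4 rhythms were close in size and time, 0.76 (SE 0.27) with a peak at 16.6 h in WT and 0.59 (SE 0.27) with a peak at 16.4 h in KO, at adjusted p-values of 0.131 and 0.351.

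Sesn2 (chr4:132492032-132510501, minus strand) encodes a leucine sensor that holds mTORC1 back when leucine is scarce. It ranged from 8.81 to 16.2 TPM in WT, with a median of 11.1, and from 7.39 to 19.3 in KO, with a median of 12.2. The KO pair at ZT20 read 7.39 and 19.3 TPM and so spanned nearly the whole range of the gene, and the KO pair at ZT0 read 7.39 and 9.75. The difference was 0.03 (SE 0.14; interval -0.25 to 0.32; adjusted p = 0.848). The KO rhythm of 0.62 (SE 0.27; adjusted p = 0.323) passed only without KO ZT20 B, the highest library (0.92, adjusted p = 0.0380).

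Eif4ebp1 (chr8:27260329-27276674, plus strand) encodes 4E-BP1, a repressor that binds the cap-binding factor eIF4E and blocks translation until mTORC1 phosphorylates it. WT libraries read 9.07 and 8.57 TPM at ZT0, 10.4 and 10.5 at ZT4, 8.47 and 9.36 at ZT8, 9.46 and 9.49 at ZT12, 7.80 and 7.85 at ZT16, and 8.44 and 8.53 at ZT20. KO libraries read 11.9 and 10.3 at ZT0, 10.0 and 10.3 at ZT4, 12.6 and 10.1 at ZT8, 14.3 and 10.8 at ZT12, 13.0 and 9.94 at ZT16, and 9.62 and 8.82 at ZT20. 11 of the 12 KO libraries were above the WT median of 8.82 TPM and 5 were above the highest WT library, and both KO libraries exceeded both WT libraries at every time but ZT4. The ranges still overlapped, as they did for all but 1.67% of tested genes. Eif4ebp1 rose from 9.00 ± 0.886 TPM in WT to 11.0 ± 1.61 in KO (SD, n = 12), a log2 difference of 0.28 (SE 0.065; interval 0.14 to 0.41; limma adjusted p = 0.00123).
By time, it passed at ZT12 (0.39, adjusted p = 0.0405) and ZT16 (0.53, adjusted p = 0.0160), where 38.2% and 21.5% of tested genes passed. No other of the 8 genes passed at any time, the shares of tested genes at the remaining times being 13.4% at ZT0, 0% at ZT4, 14.6% at ZT8 and 3.72% at ZT20. The ZT4 comparison includes the library labelled KO ZT4 A, with clock genes near WT. Neither call by time was firm. The ZT12 call was lost in 9 of 28 alternatives, among them without the library labelled KO ZT12 A, the highest of the 24 (0.19, adjusted p = 0.390), without WT ZT12 A (adjusted p = 0.121) and without WT ZT12 B (adjusted p = 0.126). The ZT16 call was lost in 4 of 28, without KO ZT16 A (0.34, adjusted p = 0.154), WT ZT16 A (adjusted p = 0.0961) or WT ZT16 B (adjusted p = 0.0623), and after median-of-ratios scaling (0.37, adjusted p = 0.0714). The call over all times was kept without KO ZT12 A (0.25, adjusted p = 0.00236) and when each other library was left out.

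The size of the Eif4ebp1 difference depended on the scale. The median tested gene was 0.15 higher in KO on the log2 scale as deposited, while mitochondrially encoded transcripts took 38.7 to 43.2% of the TPM in WT libraries and 33.0 to 41.0% in KO. Rescaling each library by the median of its gene ratios brought that median to 0.00, with 44.3% of tested genes called, 22.1% higher and 22.2% lower, against 50.9% and 10.0% as deposited. Under that scaling the Eif4ebp1 difference was 0.13 (adjusted p = 0.0883) and no longer passed, Chac1 stayed lower at -0.62 (adjusted p = 0.00175), and Atf4 was at -0.14 (adjusted p = 0.0973). The median difference of the 8 tested genes was 0.07 as deposited, below that of all tested genes. Without the libraries labelled KO ZT4 A and KO ZT12 A, 2 of the 8 passed, Eif4ebp1 higher (0.27, adjusted p = 0.00132) and Psat1 lower, where 61.3% of tested genes passed, 50.9% higher and 10.3% lower.

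**Figure D2:**
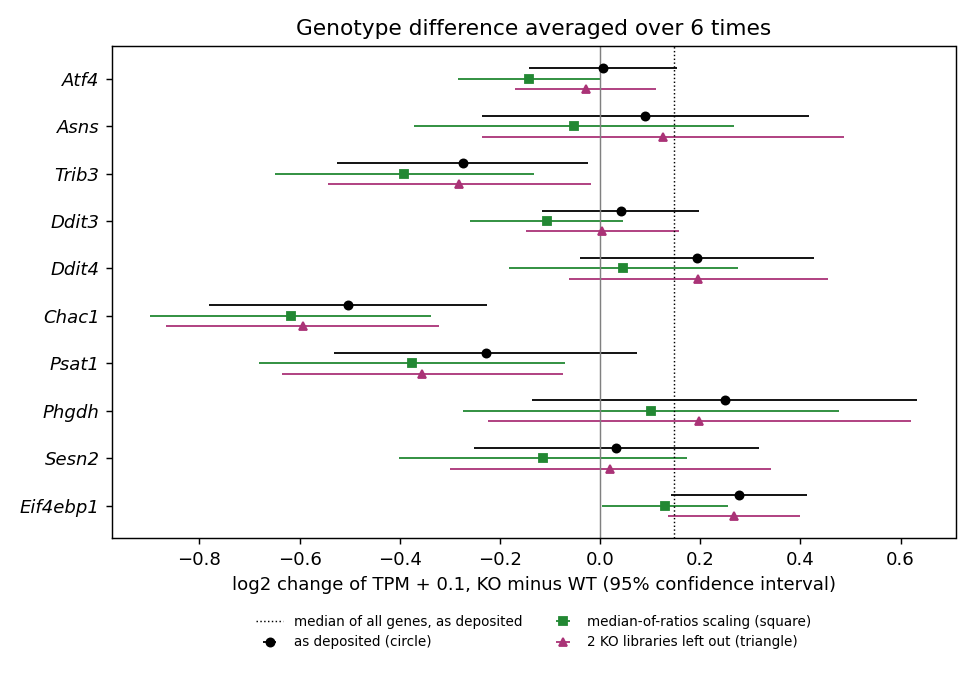
Log2 difference in TPM + 0.1, KO minus WT, with 95% confidence intervals for each gene: as deposited (circles), after median-of-ratios scaling (squares), and without the libraries labelled KO ZT4 A and KO ZT12 A (triangles). The dotted line is the median of all tested genes as deposited, 0.15. Trib3 and Chac1 come from the fit over genes of all levels. The Chac1 intervals lie below 0 in all 3 settings, and the Atf4 interval as deposited runs from -0.14 to 0.15.

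Time of day was examined with a 24-hour cosine, the fitted size being the log2 distance from trough to peak. In WT, where 13.7% of tested genes passed, none of the 8 genes did in limma. Atf4, Ddit4, Psat1 and Phgdh had unadjusted p-values under 0.05, at 0.0220, 0.0330, 0.0405 and 0.0240, where 29.2% of tested genes had such a value. The fitted WT peaks of these genes were at 19.6 h for Atf4, 16.6 h for Ddit4, 22.8 h for Psat1 and 0.16 h for Phgdh. In KO, where 3.64% of tested genes passed, none of the 8 passed in limma and none had an unadjusted p under 0.05, where 21.1% of tested genes had. Psat1 went from a fitted size of 0.74 (SE 0.27) in WT to 0.19 (SE 0.27) in KO, but the test of that difference gave an adjusted p of 0.660 in limma. No rhythm difference passed among the 8, against 0.629% of tested genes, and Phgdh alone had an unadjusted p under 0.05, where 13.7% of tested genes had.

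**Figure D3:**
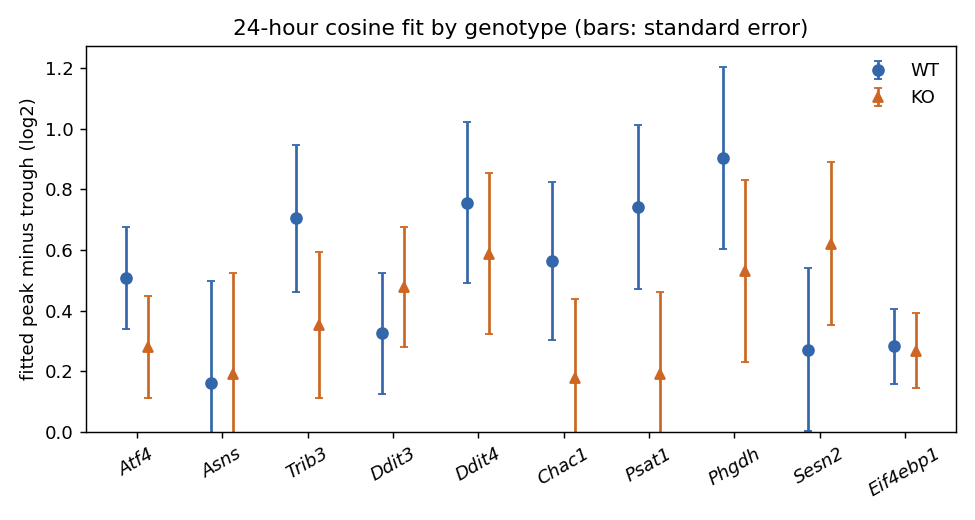
Fitted peak-to-trough size of a 24-hour cosine on the log2(TPM + 0.1) scale for each gene, in WT (circles) and KO (triangles), with bars of 1 standard error. A fitted size cannot go below 0, so noise alone gives values above it. The largest WT value is Phgdh at 0.90, and the WT and KO bars overlap for every gene but Psat1.

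The spread between libraries of the same genotype and time differed widely among these genes. As a residual SD on the log2 scale it was 0.441 for Asns, 0.405 for Phgdh, 0.403 for Sesn2 and 0.372 for Psat1, between percentiles 89.9 and 92.4 of all tested genes. Ddit4 was at 0.301, Ddit3 at 0.194 and Atf4 at 0.193, and Eif4ebp1 at 0.143 was just under the median gene's 0.149. The enzymes and Sesn2 varied more between libraries of a group than most genes of this kidney did, and the single tested gene that passed was the least variable of the 8.

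The 10 genes did not move as a block across genotypes and times. Over the 12 group means, 23 of their 45 pairs had a Pearson r above 0 and the median r was 0.01. Chac1 and Psat1 were the most alike, with r = 0.83, followed by Atf4 with Ddit3 and Phgdh with Eif4ebp1, both at 0.62. Chac1 and Eif4ebp1 ran opposite, with r = -0.62, as did Trib3 and Ddit4, with r = -0.61. These coefficients describe 12 shared points, which carry each group's scale and cell makeup.

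Among all tested genes, those whose 12 group means were most like Atf4 were Pde12 (r = 0.920), Amd1 (0.916) and Apex2 (0.907). For Ddit3 they were Hspa8 (0.945), the pseudogene Gm15459 (0.932) and Dnajb1 (0.903), and for Ddit4 Tsc22d3 (0.908), Gm16020 (0.832) and Gprc5b (0.825). Psat1 was most like Vcp (0.888), Traf3ip1 (0.872) and Gspt1 (0.868), and Phgdh most like Etaa1 (0.893), Ndn (0.884) and Rrm2 (0.870). Asns was most like Gm49369 (0.861), Kctd15 (0.852) and Myo18a (0.844), and Sesn2 most like Arid3b (0.843), Pxmp2 (0.806) and Bmf (0.805). Eif4ebp1 was most like Retreg3 (0.960), Rab13 (0.949) and Ube2d1 (0.944). No other of the 8 tested genes appeared in any of these sets, and Trib3 and Chac1, under the filter, could not. With so few places among all tested genes, an absence says little about shared movement.

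Other genes of the same pathway are given by list, beside the 50.9% of all tested genes called higher and 10.0% called lower as deposited, and the 22.1% and 22.2% after median-of-ratios scaling. Of 7 tested amino acid transporters, 3 (42.9%) rose and 2 (28.6%) fell in KO as deposited, and 2 rose and 2 fell after scaling. Slc3a2, the heavy chain shared by several amino acid exchangers, rose from 55.9 ± 8.55 to 86.4 ± 12.4 TPM (log2 difference 0.63, SE 0.072, adjusted p = 1.11e-06). Slc7a1, the cationic amino acid transporter, rose from 1.32 ± 0.158 to 2.19 ± 0.369 TPM (0.68, SE 0.089, adjusted p = 3.92e-06). Slc6a9, a glycine transporter, fell from 9.13 ± 2.09 to 4.76 ± 1.85 TPM (-0.95, SE 0.14, adjusted p = 1.10e-05). All of these changes kept their direction and call after median-of-ratios scaling, at 0.48, 0.54 and -1.10.

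Of 8 tested enzymes of serine, folate, proline and cysteine metabolism, 4 (50%) rose and none fell as deposited, a share of rises close to that of all tested genes, and 2 rose and 1 fell after scaling. Cth, which makes cysteine from cystathionine, rose from 92.3 ± 6.32 to 126 ± 14.3 TPM (0.44, SE 0.057, adjusted p = 4.15e-06), and Aldh18a1, which starts proline synthesis, rose by 0.47 (SE 0.13, adjusted p = 0.00475). Mthfd2, a mitochondrial folate enzyme, rose by 0.33 (SE 0.098, adjusted p = 0.00742), but was at 0.19 (adjusted p = 0.116) after median-of-ratios scaling. Psph, which completes the serine pathway that Phgdh and Psat1 begin, was at 0.08 (adjusted p = 0.403).
Of 10 tested transcription factors, feedback and secreted factors of the response, 6 (60%) rose and 1 (10.0%) fell as deposited, against 50.9% and 10.0% of all tested genes, and 4 rose and 2 fell after scaling. Stc2, a secreted glycoprotein, had the largest difference, from 0.783 ± 0.221 to 2.89 ± 1.10 TPM (1.68, SE 0.19, adjusted p = 1.01e-06). Ppp1r15a, which encodes GADD34 and returns eIF2 to its unphosphorylated form, rose by 0.37 (SE 0.071, adjusted p = 0.000197), and Jdp2, a repressor of the AP-1 family, rose by 0.34 (SE 0.069, adjusted p = 0.000345). Herpud1, which acts in the degradation of misfolded proteins of the endoplasmic reticulum, was the one that fell, and it had a WT rhythm of 0.86 (SE 0.18) with a peak at 13.7 h (adjusted p = 0.00925).

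For the lists closest to translation the direction depended on the scale, as it did for all tested genes. Of 12 tRNA synthetases and the tRNA exporter Xpot, 13 tested genes together, 7 (53.8%) rose and none fell as deposited, near the 50.9% of all tested genes that rose, but after median-of-ratios scaling none rose and 4 (30.8%) fell, where 22.2% of all tested genes fell. Eprs, Gars and Wars, the synthetases for glutamate and proline, glycine and tryptophan, rose by 0.21, 0.20 and 0.20 as deposited and were at 0.06, 0.06 and 0.05 after scaling, with no call. 5 of the 13 were rhythmic in WT, where 13.7% of all tested genes were, among them Tars, the threonine enzyme (0.40, peak 22.0 h, adjusted p = 0.00104), and Lars, the leucine enzyme (0.37, peak 7.59 h, adjusted p = 0.00268). 2 of the 13 were rhythmic in KO, where 3.64% of all tested genes were. These were Lars (0.31, peak 7.39 h, limma adjusted p = 0.0248) and Wars (0.34, peak 20.8 h, limma adjusted p = 0.047). None of the 13 passed for a rhythm difference, where 0.629% of all tested genes passed.
Of 14 genes of the eIF2 pathway, 7 (50%) rose and 2 (14.3%) fell as deposited, near the 50.9% and 10.0% of all tested genes, and 2 (14.3%) rose and 4 (28.6%) fell after scaling. Eif2ak2, the kinase PKR, rose by 0.30 (SE 0.059, adjusted p = 0.000278) and kept its call at 0.15 after scaling, while the subunit genes Eif2s2 and Eif2b1 did not.

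Of 18 genes of mTORC1 and amino acid sensing, 11 (61.1%) rose and 2 (11.1%) fell as deposited, against 50.9% and 10.0% of all tested genes, and 1 (5.56%) rose and 7 (38.9%) fell after scaling, against 22.1% and 22.2%. Mtor, the kinase itself, fell from 43.5 ± 7.58 to 25.3 ± 5.57 TPM (-0.79, SE 0.099, adjusted p = 2.97e-06). Castor1, an arginine sensor, fell from 5.93 ± 2.02 to 3.64 ± 0.894 TPM (-0.65, SE 0.13, adjusted p = 0.000221) and had a WT rhythm of 1.33 (SE 0.19) with a peak at 9.96 h. Sesn1, a relative of Sesn2, rose by 0.39 (SE 0.072, adjusted p = 0.000136), and these 3 calls were kept after scaling, at -0.94, -0.79 and 0.24. Eif4e, the partner of 4E-BP1, was at 0.04 (adjusted p = 0.345) as deposited. After scaling it was called lower in KO, at -0.11 (limma adjusted p = 0.0029).

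**Figure D4:**
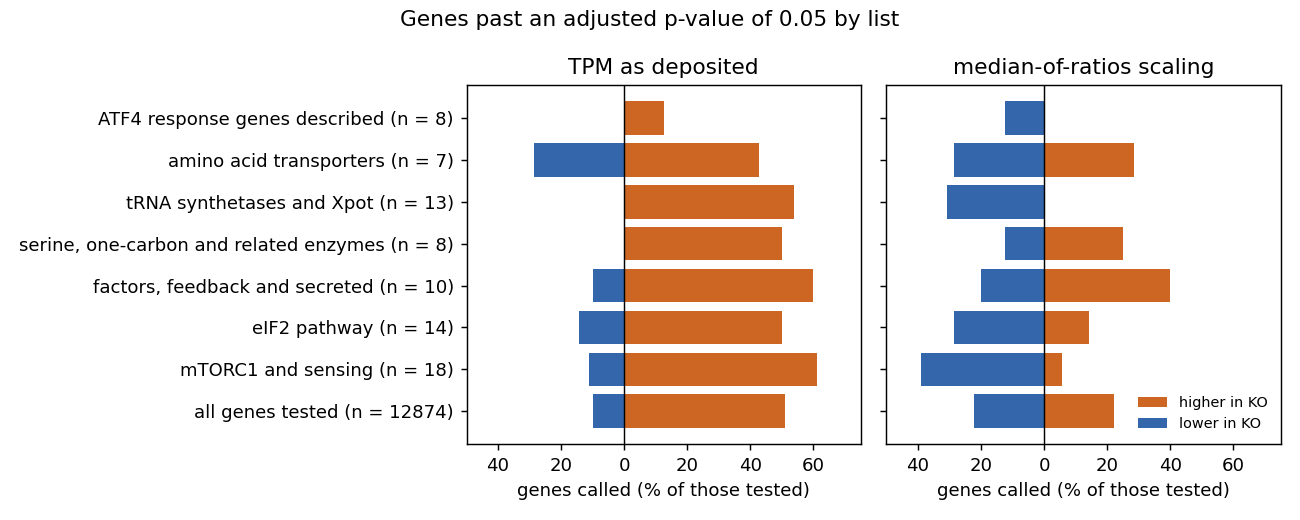
Share of tested genes in each list called higher (right of 0) or lower (left of 0) in KO, in percent, as deposited and after median-of-ratios scaling, with all 12874 tested genes in the bottom bar. As deposited, 50.9% of all tested genes were called higher and 10.0% lower, against 1 and 0 of the 8 tested ATF4 response genes.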

How the data were processed

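The values are TPM per transcript as the authors deposited them, from kallisto 0.42.4 against mm10/GRCm38 per the submitters' processing notes; the annotation release of the index and the strandedness are not given in the sources used here. Of 88198 transcripts, 86119 matched GENCODE M21 by identifier without version and were summed per gene; the 2079 others held 1.35 to 2.24% of the TPM. TPM sums to the same total in every library and carries no depth, so no counting error is given.

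Genes averaging 1 TPM or more were tested on log2(TPM + 0.1) with limma 3.58.1 (trend and robust) in R 4.3.3. Genotype was tested with time as a factor, rhythm with a 24-hour cosine per genotype, and genotype at each time with group means. P-values were adjusted by Benjamini-Hochberg over every tested gene, and a gene passes where the adjusted value is under 0.05. Folds on this scale understate changes of low genes. Trib3 and Chac1 were tested without the filter. The code was tested on simulated data. The members and pathway lists were chosen with earlier results of these data known. All 10 members are named, along with up to 3 genes with the smallest p-values per pathway list and test and the 3 genes nearest each member. Psph, Eif4e, the genotype fall of Herpud1 and the handling and hormone genes of the closing section lie outside this rule and were chosen after their values were seen. Chromosome conformation libraries were not used here.

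The library letters showed no effect shared by all groups. Between the 12 groups, differences of library A from B correlated at -0.32 to 0.34 over 66 pairs of groups, with a median of 0.02. 21 of these pairs were above 0.1, and pairing within a time was not tested separately. Alternatives changed the pseudocount, filter, scaling, model, transcript types and libraries; leaving out both KO libraries with odd clock or Y-linked genes and the permutation test were added after seeing the data.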

Additional observations from a re-analysis of the deposited data

Results flagged for a closer look

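Mtor, which encodes the kinase of mTORC1, was flagged because its fitted 24-hour rhythm differed between WT and KO in the test of the difference itself (adjusted p = 0.0298 in limma). Of all tested genes, 0.629% passed that test. The fitted size was 0.56 (SE 0.13) with a peak at 9.94 h in WT and 0.69 (SE 0.13) with a peak at 3.30 h in KO. The fitted KO peak lies near ZT4, where 1 of the 2 KO libraries is the doubted KO ZT4 A. Mtor was higher in WT, at a mean of 43.5 TPM against 25.3 in KO. The part of that library in the Mtor rhythm was not tested.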

How the results depend on the processing

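Results were recomputed under up to 36 alternatives. The count of the 8 tested genes passing for genotype was 1 in the main fit, 1 to 2 when each library was left out, and 2 without both doubted KO libraries. The count of rhythmic genes was 0 to 1 in WT and 0 to 1 in KO when each library was left out, and no rhythm difference passed under any of 35 alternatives. Psat1 alone passed in WT without WT ZT4 B (0.89, adjusted p = 0.0296), and Phgdh alone without WT ZT12 A (1.17, adjusted p = 0.0472). The 2 calls by time, both Eif4ebp1 in the main fit, became 0 after median-of-ratios scaling. Leaving out libraries leaves a single library in a group, and without WT ZT12 A the calls by time were not those of Eif4ebp1 alone. Without both doubted libraries the Eif4ebp1 difference was 0.19 at ZT12 and 0.53 at ZT16. Trib3 passed in 4 of 33 alternatives, including the total without the 20 most abundant genes (-0.34, adjusted p = 0.0477), without WT ZT20 A (-0.33) and without KO ZT16 B (-0.32). Chac1 passed in all 33, from -0.62 to -0.18. Signs that reversed, none with a call, were those of Atf4 (-0.14), Asns (-0.052), Ddit3 (-0.11) and Sesn2 (-0.11) after median-of-ratios scaling, of Atf4 (-0.081), Ddit3 (-0.045) and Sesn2 (-0.053) on the total without the 20 most abundant genes, and of Atf4 without both doubted libraries (-0.029). With single libraries left out, Atf4 ranged from -0.034 to 0.042 and Sesn2 from -0.052 to 0.11. The cause was not tested. With the library letter as a replicate block, the Eif4ebp1 difference was 0.28 (adjusted p = 0.000926), 7873 genes passed for genotype against 7844 without it, and no call among the 10 genes changed. Over all tested genes, the number rhythmic in KO ran from 12 to 626 against 468, in WT from 576 to 2843 against 1761, and the rhythm differences from 23 to 116 against 81. The share of called genes that were higher in KO was 49.9% after median-of-ratios scaling and 68.0% on the total without the 20 most abundant genes. With TPM alone the depth behind the low values of Trib3 and Chac1 is unknown.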

Other observations

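Lists of genes that respond to handling and hormones were measured beside the ATF4 response. Of 5 tested immediate early genes, Ier2 (0.26, adjusted p = 0.000793) and Btg2 (0.37, adjusted p = 0.000213) rose in KO as deposited and none fell, a share of 40% where 50.9% of all tested genes rose, and 1 rose and 1 fell after median-of-ratios scaling. Junb was at -0.10 (adjusted p = 0.368). Of 5 tested glucocorticoid-responsive genes, Sgk1 and Tsc22d3 rose and Fkbp5, which restrains the glucocorticoid receptor, fell by 0.68 (limma adjusted p = 0.00247) as deposited, and 1 rose and 1 fell after scaling. Tsc22d3, the gene whose group means were most like those of Ddit4, had a WT rhythm of 2.11 (SE 0.39) with a peak at 16.8 h (adjusted p = 0.00421).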
